A study of Drosophila melanogaster with 16 samples.

Results

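The 66 genes described here encode structural proteins of the fly cuticle: 42 Cpr genes, 15 Tweedle genes (Twdl symbols), 7 genes of the Ccp84 cluster and 2 Edg genes. They are the rows of an expression table of 9863 genes whose symbols begin with Cpr and a digit, Ccp84, Edg or Twdl and that reached 1 CPM (the unit named by the deposited table, reads of a gene relative to those of its library) in at least 4 of 16 libraries. All 66 rows with such a symbol reached that level, and the rule uses no difference between groups. An annotation of BDGP6 holds 106 genes that match the symbols, of which 40 are not analysed here.

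RNA was sequenced from whole Drosophila melanogaster larvae, collected as pools of feeding animals, of a control strain (CTRL) and of the allele cwoB9 of clockwork orange, which encodes a transcriptional repressor of the circadian clock. The labels name neither the background of the control nor the number of larvae in a pool. The larvae were first reared on a low-sugar diet of 10% yeast (24 h, 25 °C). As early second-instar larvae they were moved for 8 h either to the same low-sugar diet (LSD) or to a high-sugar diet (HSD) of 10% yeast and 15% sucrose, both with 2% blue dye. Each genotype was sequenced on each diet in 4 libraries, which makes 4 groups. Nothing in the labels says that the replicates came from separate cultures, and the spread that the p-values rest on may be technical.

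Insect cuticle is a layer of chitin fibres and proteins that the epidermis secretes to the outside. Cpr proteins, and the Ccp84 proteins and Edg78E with them, carry the Rebers and Riddiford domain, which binds chitin, and they are the most numerous cuticle proteins of the fly. Tweedle proteins are a separate family that also binds chitin, named after mutants with short, squat larvae. At every moult the epidermis makes a new cuticle, and many of these genes are known to be transcribed in short windows of the moulting cycle under the control of the steroid hormone ecdysone. The Edg genes were named for their dependence on ecdysone in imaginal discs.

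If the smallest value of a library stands for 1 read, depth was 44.9 to 54.2 M (mega) reads in listed genes. The targeted gene cwo lay at 54.9 to 58.3 CPM in the low-sugar control and 64.0 to 72.8 in the high-sugar control, and at 138.7 to 199.1 and 266.6 to 291.0 CPM in the libraries labelled cwoB9. Its RNA was therefore higher under the label of the mutant, and gene-level values do not show what the allele changes, so each genotype direction below rests on the labels. Of 5 epidermal marker genes 4 were in the table, none of them at 0, and their summed level was 219 to 260 CPM in control on low sugar, 272 to 313 in control on high sugar, 191 to 306 in cwoB9 on low sugar and 245 to 296 in cwoB9 on high sugar. In bulk RNA of whole larvae, fewer cells of a type and less RNA per cell cannot be told apart.

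In each genotype and diet the 66 genes jointly made up less than 1% of the reads in listed genes. Their summed level was 4842 ± 329 CPM in control on low sugar (SD, n = 4), 5986 ± 1138 in control on high sugar, 7572 ± 1194 in cwoB9 on low sugar and 7663 ± 904 in cwoB9 on high sugar. Per kilobase of exon, which allows genes to be compared, Cpr47Eg stood at 5229 CPM per kb over the 16 libraries, ahead of Cpr78Cc at 771, TwdlO at 665, TwdlN at 424, Cpr67Fa2 at 423 and Cpr11A at 310. At the other end were Cpr73D at 2.06 and Edg78E at 2.23 CPM per kb, Cpr73D being named after its values were seen. Means over the 16 libraries were at least 100 CPM in 11 genes and under 5 CPM in 11.

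The genes differed from most of the transcriptome in how far libraries of the same group lay apart. The SD within groups on the scale of log2(CPM + 0.5) had a median of 0.38 over the 66 genes, against 0.11 over the 9837 genes tested. It was over 1 in 17 of the 66 genes and in 78 of all 9837. By family the median was 1.49 in Tweedle genes, 0.99 in Ccp84 genes, 0.44 in the Edg genes and 0.27 in Cpr genes. These medians are descriptions of 16 libraries, with no test.

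**Figure D1:**
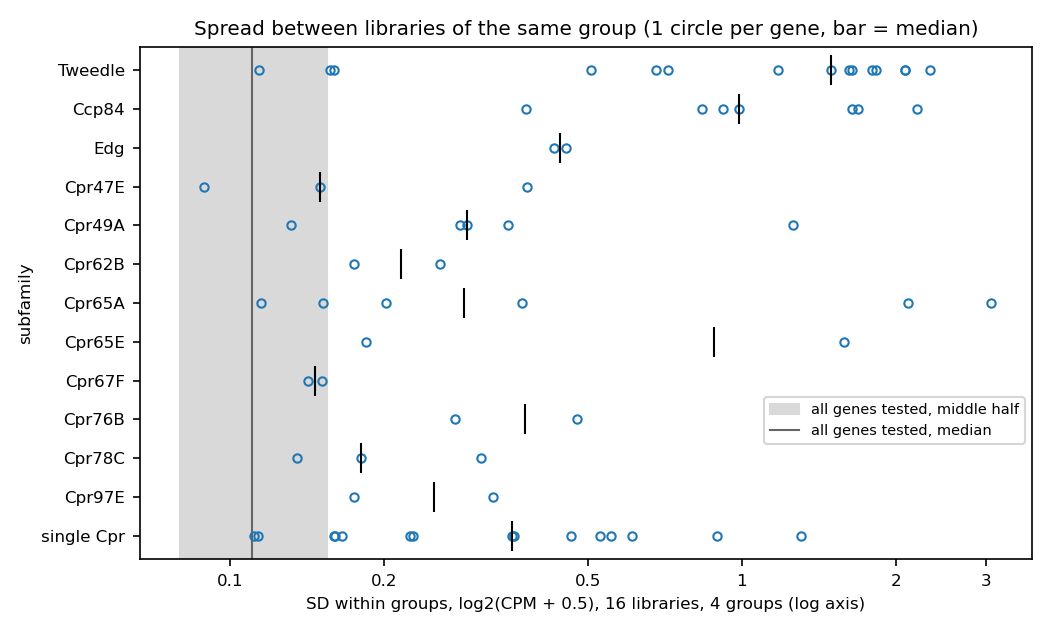
SD within groups on the log2(CPM + 0.5) scale (horizontal log axis) for each gene, by subfamily (rows); circles are genes, black bars are subfamily medians, and the grey band and line are the middle part and the median of all genes tested. Most Tweedle and Ccp84 genes lie far to the right of the grey band, with medians of 1.49 and 0.99.

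Within the Tweedle family the spread differed between gene clusters and within them. A cluster of 10 Tweedle genes lies on 3R at 26619118 to 26641054 (BDGP6) in the order TwdlM, TwdlP, TwdlB, TwdlL, TwdlO, TwdlK, TwdlJ, TwdlN, TwdlH and TwdlD, and 7 of the 10 had an SD over 1. TwdlO, inside that cluster, had an SD of 0.16, and its low-sugar control libraries read 615, 610.2, 609.6 and 603 CPM. TwdlB, in the same cluster, read 16.1, 1.01, 0.786 and 0.919 CPM in the same 4 libraries. A cluster of TwdlF, TwdlG and TwdlV on 3R at 4247020 to 4255833 had SDs of 0.72 to 2.08. On the X chromosome at 16731091 to 16744365, TwdlX and Twdlalpha had SDs of 0.11 and 0.16. Of these genes TwdlB, TwdlF, TwdlL, TwdlN and TwdlO were named by rule and the other Tweedle genes after their values were seen.

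Values that were high for their group fell mostly in the same 5 libraries. A gene was counted for a library when its CPM + 0.5 stood over 3 times the median of the other 3 libraries of its group. By that count control low-sugar library 1 held 17 genes, control high-sugar library 4 held 17, cwoB9 low-sugar library 3 held 12, cwoB9 low-sugar library 4 held 16 and cwoB9 high-sugar library 3 held 10. No other library held more than 2. The genes over this level in all 5 libraries were Ccp84Ae, Ccp84Af, TwdlB, TwdlJ, TwdlK, TwdlL and TwdlM, while 43 genes were over it in none. Every group holds at least 1 such library. As the count sets a library only against others of its own group, a level shared by a whole group is not counted. It therefore cannot show whether levels differ between genotypes or diets. The same count was not made over all genes tested, so it does not show whether these libraries stand apart in cuticle protein genes in particular.

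**Figure D2:**
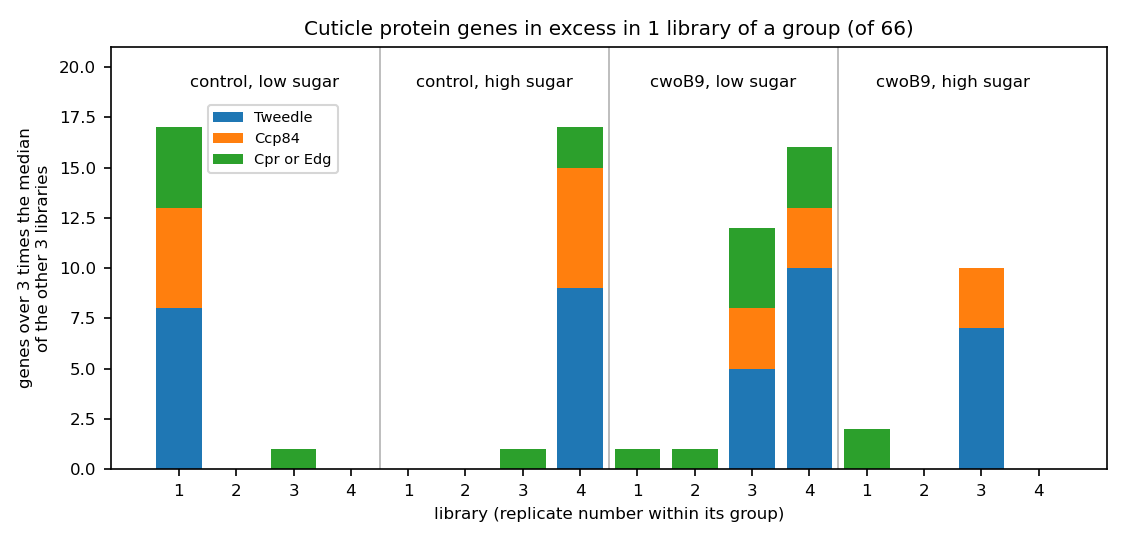
Number of the 66 genes (vertical axis) that stood over 3 times the median of the other 3 libraries of their group, for each library (horizontal axis), stacked by family. The counts are 10 to 17 in 5 libraries and at most 2 in the other 11, and Tweedle and Ccp84 genes make up most of them.

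The 5 libraries did not share 1 profile. TwdlB read 236.5 CPM in control high-sugar library 4 (8.58, 1.80 and 4.82 in libraries 1 to 3) and 165 in cwoB9 high-sugar library 3 (11.9, 4.81 and 21.2 in the others). In cwoB9 low-sugar larvae TwdlB read 0.846, 0.789, 18.1 and 25.3 CPM. TwdlL went with it, at 21.2, 4.62, 3.95 and 3.47 CPM in control on low sugar, 11.2, 3.43, 5.88 and 193 in control on high sugar, 1.65, 2.37, 36.5 and 57.2 in cwoB9 on low sugar, and 23.6, 5.34, 149 and 39.8 in cwoB9 on high sugar. Both were highest in the high-sugar member of the 5 libraries of their genotype. In cwoB9 on high sugar, library 4 was not low either. For both genes it read more than control low-sugar library 1, itself 1 of the 5 (TwdlB 21.2 against 16.1 CPM, TwdlL 39.8 against 21.2). TwdlF behaved otherwise. It read 327 CPM in cwoB9 low-sugar library 4 and no more than 5.53 CPM in any other library, and its neighbour TwdlG read 62.9 CPM in that library and 6.15 to 10.6 in the others. Cpr65Ea, named after its values were seen, read 82.7 CPM in control low-sugar library 1 and 56.6 in cwoB9 low-sugar library 4, with 0.476 to 13.7 CPM elsewhere.

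Within the Ccp84 cluster on 3R at 6686728 to 6704903, the genes again differed in spread. Ccp84Ae read 13.9, 0.0216, 0.112 and 0.0919 CPM in control on low sugar, 0.385, 0.178, 0.207 and 33.2 in control on high sugar, 0.304, 0.488, 5.86 and 11.4 in cwoB9 on low sugar, and 3.53, 3.24, 38.7 and 3.61 in cwoB9 on high sugar. The lowest of these values is the smallest step of its library, so the values well under 1 CPM rest on few reads. If that step is 1 read, 1 CPM stands for 46.1 to 55.8 reads, so the high values do not. Ccp84Ab, in the same cluster, ranged from 32.7 to 40.0 CPM in control on low sugar and from 33.6 to 81.1 in control on high sugar. Its SD of 0.38 was the smallest of the 7 genes, against 2.21 for Ccp84Ae.

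Some moulting regulators and a tanning gene stood over 3 times the median of the other 3 of their group, with 0.5 CPM added to both. They did so only in these 5 libraries. Of 16 regulators of moulting, none did so in control low-sugar library 1 or cwoB9 low-sugar library 3, 1 in each of the high-sugar libraries and 4 in cwoB9 low-sugar library 4. Of 5 tanning genes, ple did so in 3 of the 5 libraries. The genes given next were chosen after their values were seen. Eip74EF, an ecdysone-induced transcription factor, read 13.2 CPM in control high-sugar library 4 and 3.12 to 3.38 in the other 3 libraries of that group. In cwoB9 high-sugar larvae it read 14.9 CPM in library 3 and 1.82 to 2.84 in the others. In cwoB9 low-sugar library 4 it read 6.64 CPM, and there ftz-f1, a nuclear receptor of the moulting cycle, read 28.8 CPM against 7.71 to 9.15 in the other 3 libraries. ple, the tyrosine hydroxylase that starts cuticle tanning, read 102 CPM in control high-sugar library 4 against 22.0 to 25.3, and 68.2 and 55.9 CPM in cwoB9 low-sugar libraries 3 and 4 against 17.2 and 17.4. Of the 4 epidermal markers measured, Ddc, the dopa decarboxylase of tanning, read 32.6 and 17.5 CPM in cwoB9 low-sugar libraries 3 and 4 against 9.98 and 10.8, and 18.0 CPM in control high-sugar library 4 against 8.41 to 9.66. kkv, the chitin synthase, read 82.0, 109, 135 and 148 CPM in cwoB9 low-sugar libraries 1 to 4, with the high pair again libraries 3 and 4. That pair was not particular to the epidermis. Over the other 3 libraries, muscle markers had median folds of 0.87, 0.94, 1.07 and 1.07, and neuronal markers 0.81, 0.96, 1.05 and 1.16. Midgut markers differed, at 1.16, 0.91, 1.11 and 0.88. In control on low sugar kkv was lowest in library 1, at 96.3 CPM against 110 to 118. In control high-sugar library 4 it read 141 CPM, within the range of 133 to 157 of the other 3. grh, an epidermal transcription factor, also lay within the range of its group in that library, at 67.8 CPM against 58.2 to 71.4, and vvl, the fourth marker, was lowest there, at 63.5 CPM against 72.1 to 76.9. The part of moulting stage in the spread was not tested.

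**Figure D3:**
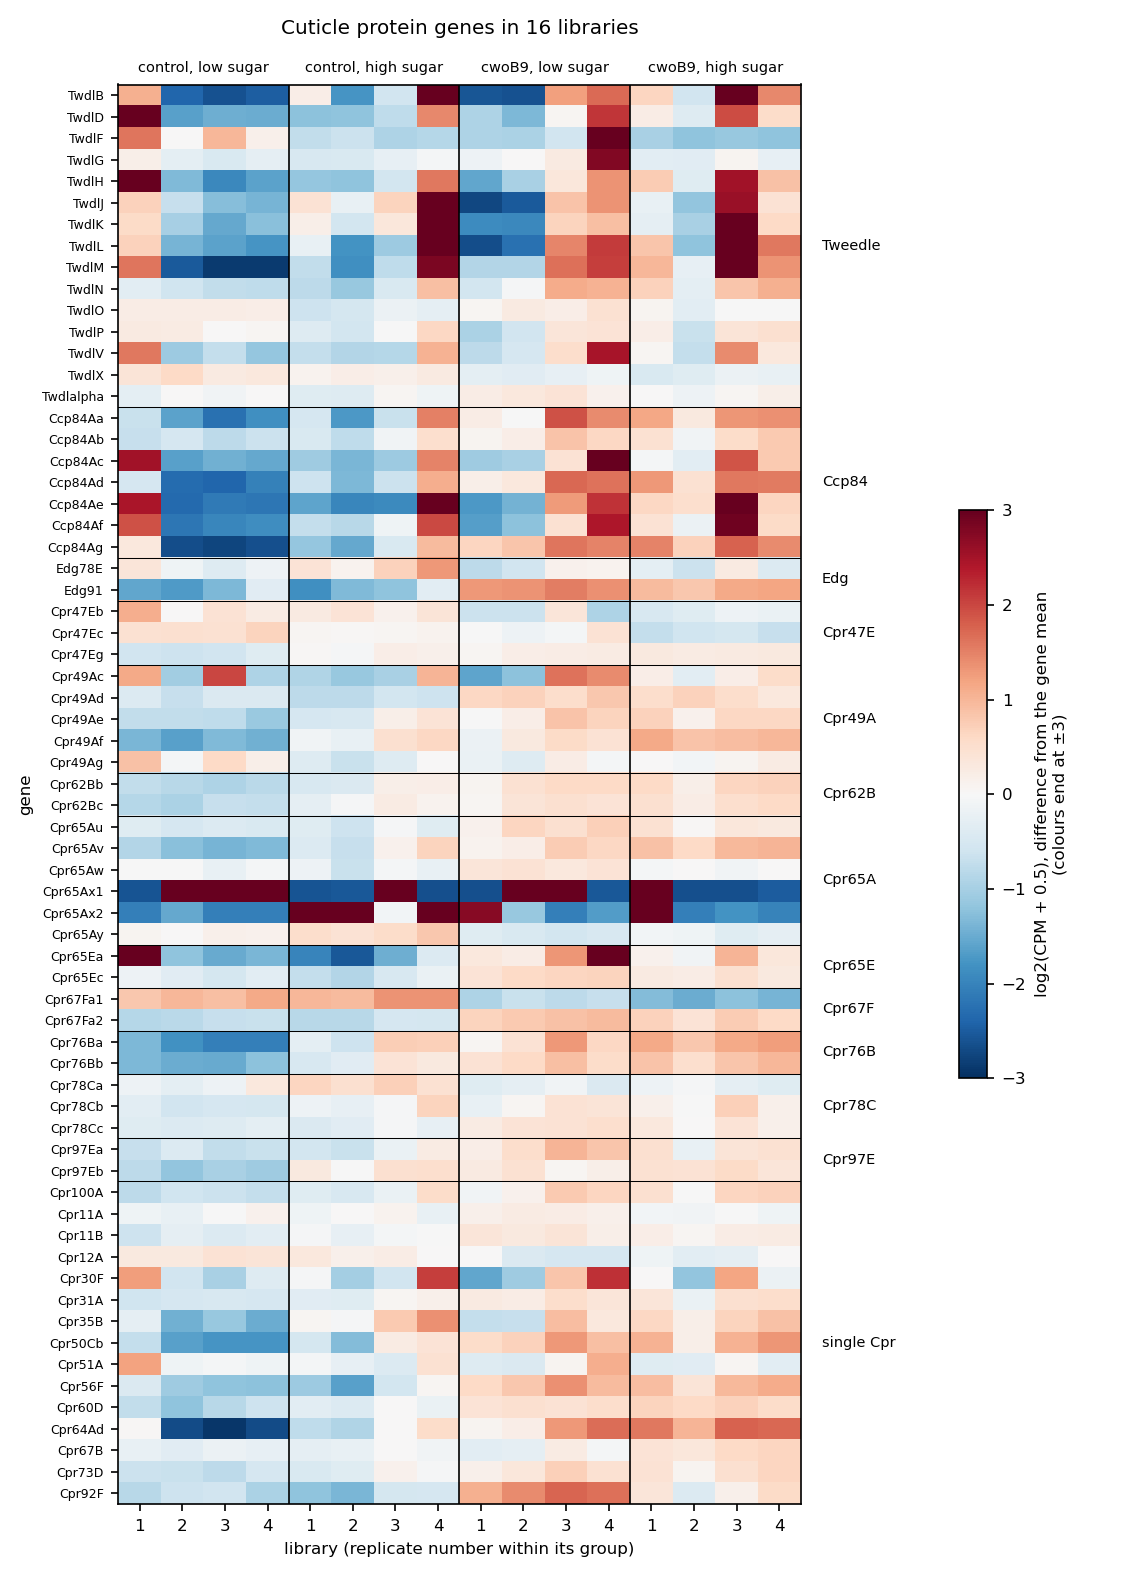
Level of each gene (rows, by subfamily) in each library (columns, by group), as log2(CPM + 0.5) less the gene's mean over the 16 libraries; red is higher, blue is lower, and colours end at ±3. Colours are set against all 16 libraries, so they do not mark the 5 libraries, which were counted within groups. Ccp84Ad, for instance, read 19.6 CPM in control low-sugar library 1, which is 1 of the 5. In cwoB9 high-sugar library 4, which is not, it read 83.3 CPM. Many Cpr rows are blue in control on low sugar and red in cwoB9.

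The comparison of cwoB9 with control shows which genes differ between these strains. As the labels do not name the background of the control, the allele and the background cannot be told apart. On low sugar most Cpr genes were higher in cwoB9. By limma's moderated test on log2(CPM + 0.5), with Benjamini-Hochberg adjustment over all 9837 genes and 0.05 as the threshold, 34 of the 66 genes were higher, 7 were lower and 25 did not pass. Of all genes tested, 23.1% were called higher and 20.8% lower (43.8% in either direction). The median log2 difference of the 66 genes was 0.93, against 0.00 over all genes. Of the 42 Cpr genes, 28 were higher and 6 lower. Of the 7 Ccp84 genes 4 were higher, of the 15 Tweedle genes 1 was higher and 1 lower, and of the Edg genes Edg91 was higher. The groups did not overlap in 33 genes that were higher and 5 that were lower, against 19.2% and 18.1% of all genes.

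Ccp84Ag, a Ccp84 protein gene, read 14.4, 1.38, 1.27 and 1.42 CPM in control and 18.1, 20.6, 35.7 and 33.0 CPM in cwoB9 on low sugar. All 4 cwoB9 libraries lay above all 4 control libraries, and the difference was 3.07 ± 0.62 (log2 ± SE, adjusted p = 0.0010). Cpr64Ad read 65.8, 9.56, 7.99 and 9.43 CPM in control and 67.0, 73.6, 157 and 205 CPM in cwoB9. The groups did not overlap, although control library 1 came close to the lowest cwoB9 library, and the difference was 2.87 ± 0.57 (adjusted p = 7.89e-04). Ccp84Ad differed by 2.76 ± 0.53 and Ccp84Aa by 2.47 ± 0.58. Edg91, at 4.52, 3.99, 5.30 and 11.05 CPM in control, read 35.9, 37.1, 42.4 and 37.6 CPM in cwoB9, a difference of 2.63 ± 0.29 (adjusted p = 3.19e-06) with no overlap.

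Further Cpr genes moved the same way. Cpr76Ba and Cpr76Bb, both on 3L, were higher by 2.42 ± 0.30 and 2.02 ± 0.18. Cpr92F read 1.71, 2.05, 2.15 and 1.53 CPM in control and 7.81, 10.0, 12.8 and 11.98 CPM in cwoB9, a difference of 2.23 ± 0.23 (adjusted p = 1.69e-06). The most abundant gene, Cpr47Eg, read 1437, 1399.8, 1436 and 1661 CPM in control and 2247, 2453, 2517 and 2560 CPM in cwoB9. Its groups did not overlap and the difference was 0.72 ± 0.06 (adjusted p = 2.08e-07). Among the falls, Cpr47Eb, of the same 47E cluster as Cpr47Eg, was lower by 0.91 ± 0.24 on the log2 scale in absolute size, from 64.0 to 136 CPM in control to 33.3 to 81.8 in cwoB9, with overlap. Cpr12A was lower without overlap, at 9.27 to 10.3 CPM in control and 5.15 to 7.53 CPM in cwoB9 (-0.71 ± 0.11, adjusted p = 8.21e-05). Cpr11A was higher by 0.26 ± 0.07, a difference of 0.15 that did not pass after quantile normalization (adjusted p = 0.12), nor did the 0.24 without the 5 libraries (adjusted p = 0.0711). The call for Cpr49Ag (-0.51 ± 0.19) was lost without any 1 of 5 libraries (control low-sugar 1 or 3, cwoB9 low-sugar 1, 2 or 4; adjusted p = 0.0565 to 0.13).

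On high sugar 28 genes were higher in cwoB9, 7 were lower and 31 did not pass, with a median log2 difference of 0.60 against 0.00 over all genes. Of all genes tested, 21.1% were called higher and 18.9% lower (40.0% in either direction). Libraries did not overlap in 17 genes that were higher and 8 that were lower, against 20.5% and 19.5% of all genes. By family 23 Cpr genes were higher and 5 lower, 3 Ccp84 genes were higher, and 1 Tweedle and 1 Edg gene were called in each direction. The low-sugar and high-sugar comparisons share no library. Of all genes tested, 11.6% were called higher in both, 11.5% lower in both and 1.33% in opposite directions. Of the 66 genes, 26 were higher in both and 5 were lower (Cpr12A, Cpr47Ec, Cpr65Ay, Cpr67Fa1 and TwdlX, TwdlX named after its values were seen), and no gene was called in opposite directions.

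Edg91 was higher on high sugar too, from 3.58, 5.35, 5.83 and 11.3 CPM in control to 27.7, 25.1, 31.9 and 33.0 CPM in cwoB9 (2.19 ± 0.29, adjusted p = 2.15e-05). Its groups did not overlap. Edg78E went the other way, from 2.77, 2.14, 3.52 and 5.60 CPM to 1.51, 1.07, 2.48 and 1.37 CPM (-0.90 ± 0.28, adjusted p = 0.0173), with overlap. The call for Edg78E was lost without control high-sugar library 4 (adjusted p = 0.061) or cwoB9 high-sugar library 2 (adjusted p = 0.0563). Cpr78Ca was lower at 3.43 to 4.45 CPM against 6.45 to 7.80 in control (-0.77 ± 0.12, adjusted p = 1.06e-04), without overlap. The calls on high sugar for Cpr12A (-0.35 ± 0.11) and TwdlO (0.34 ± 0.10) were lost without control high-sugar library 1 or cwoB9 high-sugar library 2 for the former (adjusted p = 0.0562 and 0.0543) and without control high-sugar library 1 or 2 or cwoB9 high-sugar library 1 for the latter (adjusted p = 0.0544 to 0.0644). TwdlX read 126 to 151 CPM in cwoB9 and 183 to 206 CPM in control on high sugar (-0.48 ± 0.08).

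Ccp84Ag differed by 1.89 ± 0.62 and Ccp84Ad by 1.60 ± 0.53, both with an adjusted p of 0.025, and Ccp84Ab by 0.63 ± 0.24 (adjusted p = 0.0498). The call for Ccp84Ag was lost without any 1 of 5 libraries (control high-sugar 1 or 2, cwoB9 high-sugar 1, 3 or 4; adjusted p = 0.0502 to 0.079). That for Ccp84Ad was lost without any 1 of 6 (control high-sugar 1, 2 or 3, cwoB9 high-sugar 1, 3 or 4; adjusted p = 0.0533 to 0.0851), and that for Ccp84Ab without any 1 of 12 (every library other than control high-sugar 4, cwoB9 low-sugar 1 or 3 and cwoB9 high-sugar 2; adjusted p = 0.0539 to 0.162). Cpr64Ad (1.80 ± 0.57) lost its call without control high-sugar library 1 or 2 (adjusted p = 0.0553 and 0.058), and Cpr76Ba (0.95 ± 0.30) without either of those or cwoB9 high-sugar library 4 (adjusted p = 0.0521 to 0.0738). Cpr47Eg (0.19 ± 0.06) lost it without control high-sugar 1 or 2 or cwoB9 high-sugar 1 or 4 (adjusted p = 0.053 to 0.0826).

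**Figure D4:**
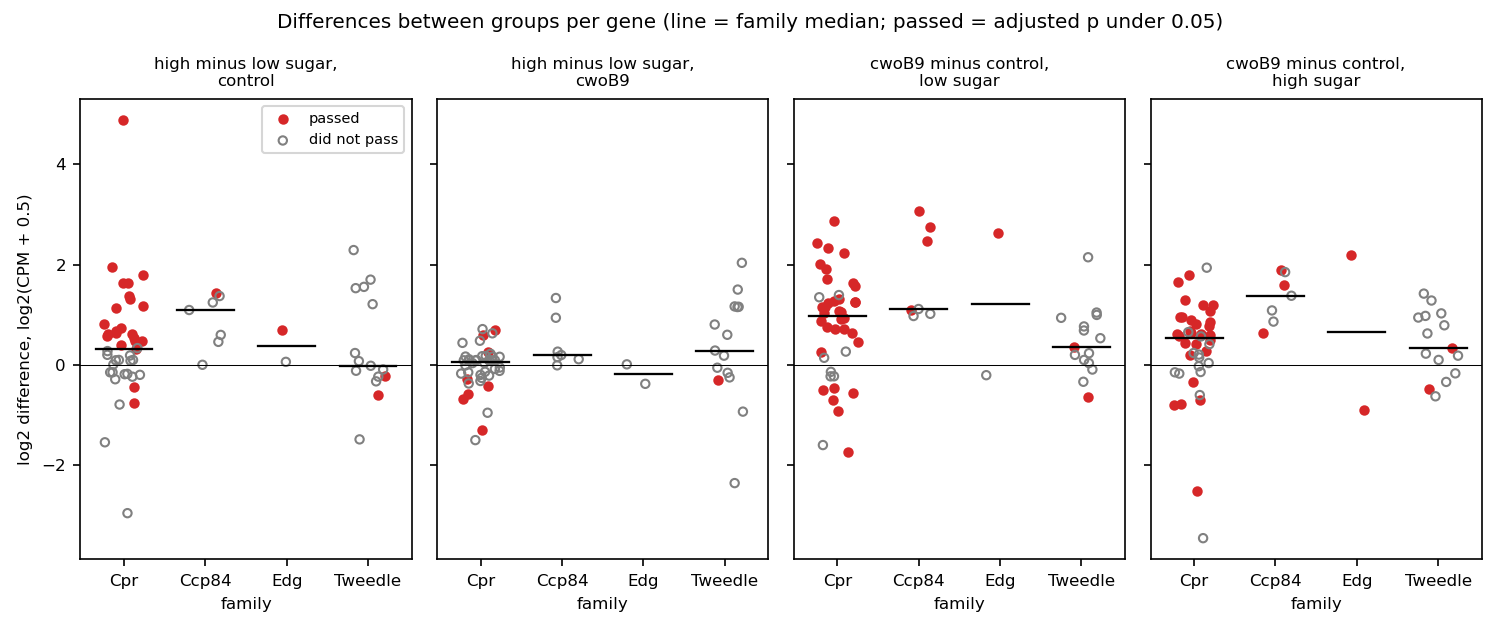
Log2 difference of each gene (vertical axis) in the diet and genotype comparisons (panels), by family (horizontal axis); red points passed at an adjusted p under 0.05, open points did not, and lines are family medians. In cwoB9 against control on low sugar 34 of the 66 genes were higher, whereas Tweedle genes spread widely with 1 called in each direction.

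The diet comparisons ask which genes changed within 8 h on high sugar. In control larvae 23 of the 66 genes rose, 4 fell and 39 did not pass, with a median log2 difference of 0.33 against 0.00 over all genes. Of all genes tested, 33.1% were called higher and 34.8% lower (67.9% in either direction), so the share of the 66 genes that rose, 34.8%, was near that of all genes and the share that fell, 6.06%, was below it. Libraries did not overlap in 19 genes that were higher and 4 that were lower, against 31.3% and 32.9% of all genes. The SE of these genes was large, with a median of 0.24 against 0.08 over all genes, which limits what can be called. Of the Cpr genes 21 rose and 2 fell, Ccp84Ad and Edg78E rose, and 2 Tweedle genes fell. This comparison shares the low-sugar control libraries with the genotype comparison on low sugar, so the values of a gene in both are not independent.

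Cpr76Ba read 4.96, 3.45, 2.90 and 2.87 CPM on low sugar and 10.9, 8.57, 22.9 and 22.5 CPM on high sugar in control, without overlap (1.95 ± 0.30, adjusted p = 3.81e-05). Cpr49Af read 19.2, 15.9, 19.9 and 18.1 CPM on low sugar and 46.7, 43.1, 70.1 and 77.6 CPM on high sugar, also without overlap (1.63 ± 0.18, adjusted p = 1.06e-06). Cpr76Bb rose by 1.38 ± 0.18 and Cpr65Av by 1.13 ± 0.24. Cpr64Ad rose by 1.79 ± 0.57 (adjusted p = 0.0113), with library 1 on low sugar inside the high-sugar range of 33.9 to 93.2 CPM. Ccp84Ad rose by 1.43 ± 0.53, a call lost without any 1 of low-sugar control libraries 2, 3 or 4 or high-sugar control library 4 (adjusted p = 0.0583 to 0.102), and without the last the difference fell to 0.94. The rise of Edg78E (0.70 ± 0.28) was lost without any 1 of 5 libraries (control low-sugar 2, 3 or 4, control high-sugar 3 or 4; adjusted p = 0.0666 to 0.128).

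Cpr47Eg rose from 1399.8 to 1661 CPM on low sugar to 2207, 2089, 2459 and 2376 CPM on high sugar (0.62 ± 0.06, adjusted p = 3.27e-07). The falls were TwdlO, Cpr47Ec, Cpr49Ag and TwdlX. TwdlO went from 603 to 615 CPM to 342, 366, 463 and 437.5 CPM (-0.61 ± 0.10, adjusted p = 9.3e-05), without overlap. Cpr47Ec went from 43.9 to 51.1 CPM to 32.8 to 34.4 CPM (-0.45 ± 0.10, adjusted p = 9.21e-04), also without overlap. Cpr49Ag, of the same cluster on 2R as Cpr49Af, went from 204, 107, 170 and 125 CPM to 85.3, 70.1, 85.3 and 112 CPM (-0.75 ± 0.19, adjusted p = 0.0022), and the top high-sugar library reached into the low-sugar range. Genes of the same Cpr cluster thus differed in direction in 47E and in 49A.

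In cwoB9 larvae 3 genes rose on high sugar, 6 fell and 57 did not pass, with a median log2 difference of 0.09 against -0.01 over all genes. Of all genes tested, 22.5% were called higher and 29.5% lower (52.1% in either direction), both above the shares of the 66 genes. Libraries did not overlap in 3 genes that were higher and 7 that were lower, against 18.9% and 26.3% of all genes. The rises were Cpr49Af, from 44.2, 61.6, 74.8 and 68.4 CPM to 111, 90.9, 96.9 and 100.4 CPM (0.70 ± 0.18, adjusted p = 0.0042), Cpr67B (0.60 ± 0.11) and Cpr65Ay (0.25 ± 0.08). That of Cpr65Ay was lost without cwoB9 high-sugar library 1 (adjusted p = 0.0515). Among the falls, Cpr92F went from 7.81 to 12.8 CPM to 4.60, 2.47, 3.87 and 5.36 CPM (-1.31 ± 0.23, adjusted p = 2.12e-04), without overlap. Cpr47Ec (-0.68 ± 0.10) and TwdlO (-0.31 ± 0.10) fell in both genotypes, the call for TwdlO being lost without cwoB9 low-sugar library 4 or cwoB9 high-sugar library 2 (adjusted p = 0.069 and 0.0746).

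This count depended on the 5 libraries with high values. Without them, a choice made on these genes' own values that leaves 2 cwoB9 libraries on low sugar, 20 genes were called higher and 5 lower in cwoB9 on high sugar, against 24.7% and 29.4% of all genes (54.1% in either direction). Of the 9 genes called with all libraries, 8 were called without the 5, TwdlO was not, and 17 were called only without them, among them 8 Tweedle and 4 Ccp84 genes. For genes such as TwdlL, at 1.65 and 2.37 CPM on low sugar and 23.6, 5.34 and 39.8 CPM on high sugar in the libraries kept, the omission itself takes out the high low-sugar values, so these counts are descriptions and test nothing. In control larvae the same omission gave 29 higher and 7 lower, against 32.5% and 33.8% of all genes (66.3% in either direction). For the genotype it gave 35 higher and 11 lower on low sugar (19.9% and 17.7% of all genes, 37.7% in either direction) and 41 higher and 8 lower on high sugar (21.7% and 18.9%, 40.5% in either direction), where all 7 Ccp84 genes were higher. No gene called with and without the 5 libraries changed direction in any comparison.

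**Figure D5:**
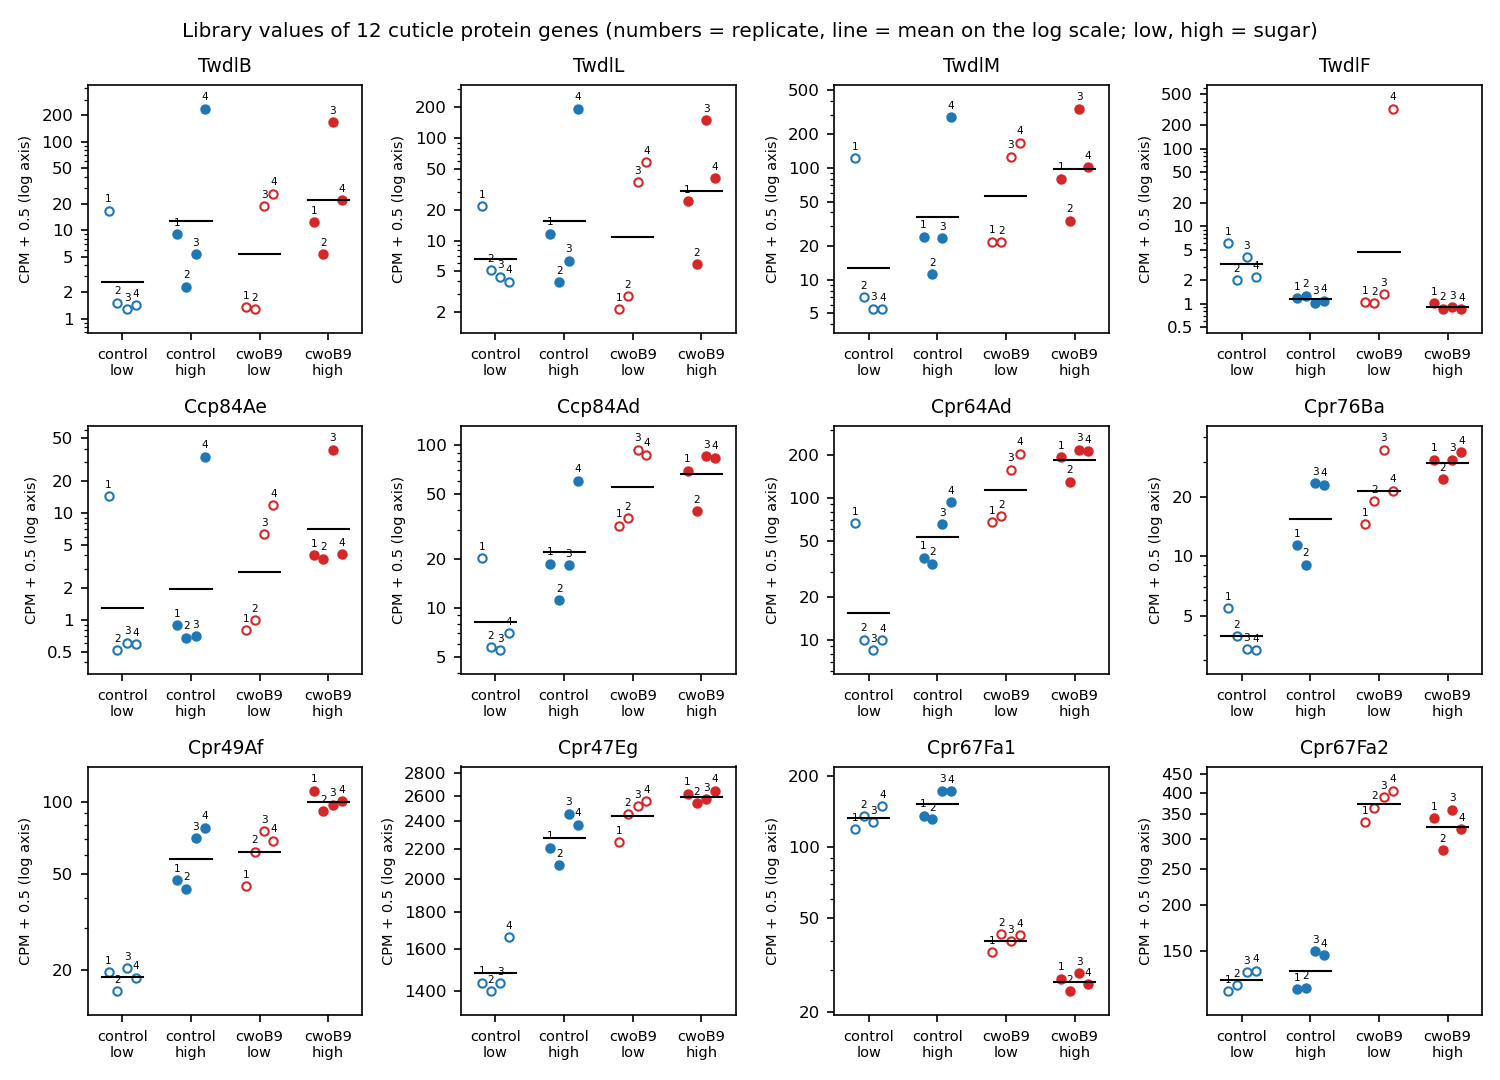
CPM + 0.5 on log axes (vertical) in each library of 12 genes, by group (horizontal: control or cwoB9, low or high sugar); numbers are replicates and lines are means on the log scale. TwdlB, TwdlL, TwdlM, TwdlF and Ccp84Ae spread widely within at least 1 group, while Cpr47Eg, Cpr67Fa1 and Cpr67Fa2 keep close together within groups. Cpr49Af lies between, with an SD within groups of 0.28.

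Whether the diet difference itself differed between genotypes was tested as an interaction. It was lower in cwoB9 for 11 of the 66 genes, higher for 2 and did not pass for 53, with a median of -0.42 against 0.00 over all genes. Of all genes tested, 8.95% were called lower and 7.92% higher (16.9% in either direction). All 13 called genes were Cpr genes, whose SE had a median of 0.24, against 0.88 in Ccp84, 1.34 in Tweedle and 0.40 in Edg genes. The median interaction was -0.45 in Cpr, -0.47 in Ccp84, -0.57 in Edg and -0.13 in Tweedle genes, so the lack of calls in the other families does not set them apart. This contrast reuses the libraries of the diet comparisons, so its values restate the 2 diet differences of a gene. Cpr76Bb, with diet differences of 1.38 in control and 0.17 in cwoB9, had an interaction of -1.20 ± 0.25 (adjusted p = 0.00531). For Cpr47Eg they were 0.62 and 0.09 (-0.53 ± 0.09, adjusted p = 0.00109). For Cpr49Af they were 1.63 and 0.70 (-0.94 ± 0.25, adjusted p = 0.0218), so it rose in both genotypes and by less in cwoB9.

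Cpr92F (-1.16 ± 0.32) did not pass on high sugar in control and fell in cwoB9. Its interaction was lost without control high-sugar library 3 or 4 or cwoB9 low-sugar library 3 (adjusted p = 0.0514 to 0.0547). Cpr67B, at 84.2 to 93.5 CPM in control on low sugar and 88.8 to 107 on high sugar, read 84.9, 87.96, 127 and 102 CPM in cwoB9 on low sugar and 141, 135, 162 and 167 CPM on high sugar (0.50 ± 0.15, adjusted p = 0.0361). That call was lost without any 1 of 9 libraries (control low-sugar 1, 3 or 4, control high-sugar 1, 2 or 4, cwoB9 low-sugar 2, cwoB9 high-sugar 3 or 4; adjusted p = 0.0555 to 0.0683). The interaction of Cpr49Ag (0.92 ± 0.26) was lost without any 1 of 4 (control low-sugar 3, control high-sugar 2, cwoB9 low-sugar 2, cwoB9 high-sugar 4; adjusted p = 0.0507 to 0.0562) and that of Cpr76Ba (-1.47 ± 0.43) without any 1 of 7 (control low-sugar 2, 3 or 4, control high-sugar 3 or 4, cwoB9 low-sugar 3, cwoB9 high-sugar 2; adjusted p = 0.053 to 0.0637). That of Cpr78Ca (-0.55 ± 0.17) was lost without any 1 of 10 (control low-sugar 1, 2 or 3, control high-sugar 1 or 3, cwoB9 low-sugar 2 or 3, cwoB9 high-sugar 1, 3 or 4; adjusted p = 0.0566 to 0.0851). Without the 5 libraries of high values the count was 3 lower and 3 higher, against 5.34% and 3.13% of all genes (8.47% in either direction), and 5 of the 13 calls were made again. Of those lost, Cpr78Ca (-0.52, adjusted p = 0.185), Cpr76Bb (-1.01, adjusted p = 0.0662) and Cpr76Ba (-1.09, adjusted p = 0.14) moved by less than 1.5 times, and Cpr49Af (-0.58, adjusted p = 0.213) and Cpr92F (-0.76, adjusted p = 0.285) by more, while Cpr47Eg, Cpr49Ag, Cpr67B and Cpr67Fa1 kept theirs (adjusted p = 0.0366, 0.0152, 0.0114 and 0.0266).

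Gene pairs that share a name and a position gave values that are uncertain gene by gene, since counting may split reads between similar copies. Cpr67Fa1 read 119, 135, 127 and 149 CPM in control on low sugar and 35.2, 42.2, 39.4 and 41.8 CPM in cwoB9, lower by 1.73 ± 0.10 in absolute log2 size, while Cpr67Fa2 read 116.5, 121, 131 and 132 CPM in control and 333, 365, 388 and 405 CPM in cwoB9, higher by 1.57 ± 0.09. Cpr67Fa1 held 49.4% to 54.3% of the sum of both in the 8 control libraries and 7.37% to 10.4% in the 8 cwoB9 libraries. The sum was 258 ± 18.7 CPM in control on low sugar (SD, n = 4), 286 ± 39.7 in control on high sugar, 413 ± 33.8 in cwoB9 on low sugar and 352 ± 36.2 in cwoB9 on high sugar. On low sugar the sum was higher in cwoB9 by 0.68 ± 0.08 on the log2 scale in all 4 libraries (two-sided exact permutation p = 0.0286, the smallest that 4 against 4 can give, 0.229 after adjustment over 8 tests of sums). How reads were divided between the copies in counting was not tested.

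Cpr65Ax1 and Cpr65Ax2 alternated between libraries. Cpr65Ax1 read 0.0201, 28.7, 33.4 and 37.3 CPM in control on low sugar, where Cpr65Ax2 read at most 0.216. On high sugar in control Cpr65Ax2 read 47.7, 40.4, 1.47 and 17.3 CPM and Cpr65Ax1 read 0.0202, 0.0397, 37.5 and 0. With 1 CPM as the limit, 5 libraries showed Cpr65Ax1 alone, 4 showed Cpr65Ax2 alone, 2 showed both and 5 showed neither. The call of Cpr65Ax2 in the control diet comparison (adjusted p = 0.00454) is therefore uncertain, and the sum of the copies passed in none of the 4 comparisons (exact permutation p from 0.143 to 0.714). With 8 tests of sums a single one cannot pass after adjustment, since 4 against 4 gives no p under 0.0286. The differences of the sum were large and uncertain, such as -4.28 ± 1.69 for cwoB9 against control on high sugar (log2 ± SE).

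A few further members overlap other annotated genes. Exons of Cpr73D overlap Ogdh and those of Cpr65Au overlap an antisense RNA, both on the opposite strand, and exons of Twdlalpha overlap CG32568 on the same strand. The sources used here do not give the strand setting of the counting, so the values of these 3 genes may include reads of their partners. Cpr73D and Cpr65Au were among the 26 genes higher in cwoB9 on both diets. Genes within the Tweedle and Ccp84 clusters are paralogs, and some reads may be shared between them.

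Other genes of the cuticle were examined from lists. Of 22 other cuticle protein genes measured, among them the Lcp genes and the obstructor family, 15 rose and 1 fell in control on high sugar, where 33.1% of all genes were called higher and 34.8% lower. In cwoB9 5 rose and 4 fell, against 22.5% and 29.5% of all genes, so the share that rose was near that of all genes. Against control they were higher in 13 and lower in 3 on low sugar (23.1% and 20.8% of all genes), but higher in 5 and lower in 8 on high sugar (21.1% and 18.9% of all genes). obst-B, a chitin-binding protein, rose by 1.54 in control and 0.72 in cwoB9. Their interaction was lower in 11 of 22 and higher in none, against 8.95% and 7.92% of all genes. In this list the median log2 genotype difference was 0.54 on low sugar and -0.12 on high sugar, while in the 66 genes it was 0.93 and 0.60.

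Of 17 genes of chitin synthesis and organisation 12 rose and 2 fell in control on high sugar, against 33.1% and 34.8% of all genes. In cwoB9 4 rose and 1 fell, against 22.5% and 29.5% of all genes, so the share that rose was near that of all genes. mmy, which makes the chitin precursor UDP-N-acetylglucosamine, rose by 0.82 and kkv, the chitin synthase, by 0.40 in control. In cwoB9 they differed by 0.13 and 0.02 and did not pass. On low sugar 9 of the 17 were higher in cwoB9 and 1 lower, against 23.1% and 20.8% of all genes. On high sugar 2 were higher and 3 lower, against 21.1% and 18.9%, and the share that was lower was near that of all genes. The interaction was lower in 4 and higher in 1, against 8.95% and 7.92% of all genes.

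Of 16 regulators of moulting 5 rose and 6 fell in control on high sugar, shares near the 33.1% and 34.8% of all genes, and 2 rose and 3 fell in cwoB9, below the 22.5% and 29.5% of all genes. Hr4 fell by 1.98 on the log2 scale and Hr46, also known as Hr3, by 1.47 in control, both nuclear receptors that act in response to ecdysone, and Blimp-1, a repressor induced by ecdysone, fell by 2.70. ftz-f1 rose by 0.84. In cwoB9 on low sugar 1 of the 16 was higher and 4 lower than in control, against 23.1% and 20.8% of all genes. On high sugar 2 were higher and 2 lower, against 21.1% and 18.9%. Their interaction was higher in 1 and lower in none, against 7.92% and 8.95% of all genes. Of 7 genes of ecdysone synthesis 2 rose and 1 fell in control and 1 rose and 2 fell in cwoB9 on high sugar, and in cwoB9 2 were lower on low sugar and 4 on high sugar, with none higher, and 1 had a lower interaction. Of 5 tanning genes 2 rose in control and 3 in cwoB9 with no fall, 2 were higher in cwoB9 on each diet and 1 was lower on high sugar, and 1 interaction was lower. The shares of all genes given in this paragraph hold for these comparisons too. No count in these lists of 7 and 5 genes was tested against them. The part of developmental timing in these differences was not tested.

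Marker lists of other tissues differed in whether they separated the groups. Summed midgut markers, 5 of 5 measured and none at 0, lay at 396 to 457 CPM in control on low sugar, 747 to 1013 on high sugar, 1229 to 1447 in cwoB9 on low sugar and 2006 to 2489 on high sugar, without overlap. Summed tracheal markers, 4 of 5 measured and none at 0, lay at 931 to 1122, 1011 to 1209, 1130 to 1722 and 1014 to 1347 CPM in the same order, overlapping except between the genotypes on low sugar. Summed neuronal markers, 5 of 5 measured, lay at 183 to 226, 255 to 290, 203 to 269 and 242 to 298 CPM, and the genotypes overlapped on both diets. Of the midgut markers, alphaTry, betaTry and Jon65Ai each separated the groups, but Vha100-4 and Npc2f did not follow the sum. Vha100-4 read 143 to 177 CPM in cwoB9 on low sugar and 124 to 129 on high sugar. Npc2f overlapped between the genotypes on both diets. Tracheae carry a cuticle of their own. The part of tissue shares in the results for cuticle protein genes was not tested.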

How the data were processed

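The deposited table gives 1 value per gene and library, which its name calls CPM. As the values of 9 of the 16 columns sum to more than CPM can, the deposited values were treated as a signal of unstated scaling, and no count test was run. Per the labels' protocols, libraries came from rRNA-depleted RNA with a stranded kit, with single-end reads of 75 bp from 2 technical runs of each sample. The submitters' processing notes name Trimmomatic, TopHat2 2.1.0, HTSeq and limma. Further columns hold the authors' log2 fold changes, p-values and test statistics (a score per gene) from limma, which were not used. The sources used here do not give the genome build, annotation or strand setting behind the values.

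From these values log2(CPM + 0.5) was computed for the 9837 genes that reached 1 CPM in 4 or more libraries. A model with 1 mean per group was fitted to the 16 libraries in limma 3.58.1 (R 4.3.3) and eBayes with trend (12 residual degrees of freedom), two-sided, with Benjamini-Hochberg adjustment over all genes within a comparison and a threshold of 0.05. The pseudocount shrinks differences of low genes. The fit was checked on simulated data. Python 3.11.15 was used for tables, exact tests and figures. Positions and exon lengths come from Ensembl release 115 (BDGP6).

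Genes were named by rule: all Ccp84 and Edg genes, the 6 with the highest mean, the 6 with the largest spread among those of at least 5 CPM, the 3 largest rises and falls called per comparison whose higher group averaged 5 CPM or more, and the highest gene of each subfamily of 3 or more. The members, lists and rules were chosen with earlier results of these data known. Alternatives were other pseudocounts, filters and scalings, a robust fit, only the 8 libraries compared, a replicate block and leaving out each library, and, chosen after seeing the data, omission of 5 libraries, array weights and sums of copies.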

Additional observations from a re-analysis of the deposited data

Results flagged for a closer look

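Of 136 groups of 4 libraries of the genes named by rule, 29 held 1 library far above the other 3 relative to the range of the group, and 21 of these lay in the 5 libraries with 10 to 17 high genes. For normally distributed values chance flags about 1 in 20 groups. The flags were taken on CPM without logs, and all 29 were on the high side. That rate also cannot be set against this count, since some of these genes were named for their spread and the 5 libraries were picked on the same values. In control low-sugar library 1 these were Ccp84Ac at 8.70 CPM, Ccp84Ad at 19.6, Ccp84Ae at 13.9, Ccp84Af at 9.81, Ccp84Ag at 14.4, Cpr64Ad at 65.8, TwdlB at 16.1 and TwdlL at 21.2. In control high-sugar library 4 they were Ccp84Aa at 30.1 CPM, Ccp84Ac at 4.001, Ccp84Ad at 60.1, Ccp84Ae at 33.2, Ccp84Af at 10.3, TwdlB at 236.5 and TwdlL at 193. In cwoB9 low-sugar library 4 they were Ccp84Ac at 17.2 CPM and TwdlF at 327, and in library 3 of that group Cpr47Eb at 81.8. In cwoB9 high-sugar library 3 they were Ccp84Ae at 38.7 CPM, Ccp84Af at 20.4 and TwdlB at 165.

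The other 8 lay elsewhere. Cpr47Ec at 51.1 CPM and Cpr47Eg at 1661 CPM stood apart in control low-sugar library 4, and Cpr12A at 7.53 CPM in cwoB9 low-sugar library 1. The copies Cpr65Ax1 and Cpr65Ax2 stood apart at 37.5 CPM (Cpr65Ax1, control high-sugar library 3), 25.3 and 30.0 CPM (Cpr65Ax1 and Cpr65Ax2, cwoB9 high-sugar library 1), 13.2 CPM (Cpr65Ax2, cwoB9 low-sugar library 1) and 0.216 CPM (Cpr65Ax2, control low-sugar library 2).

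The diet difference differed between genotypes by limma's interaction test in 9 named genes. The log2 interaction was -1.47 for Cpr76Ba, -1.20 for Cpr76Bb, -1.16 for Cpr92F, -0.94 for Cpr49Af, -0.78 for Cpr67Fa1, -0.55 for Cpr78Ca and -0.53 for Cpr47Eg. It was 0.50 for Cpr67B and 0.92 for Cpr49Ag.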

How the results depend on the processing

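Of 1960 recomputed values for single genes, 1855 kept their direction and side of the threshold, 105 lost significance and 0 reversed. They came from 73 gene comparisons of named genes, all of which passed in the main fit. In a comparison between 2 groups, leaving out a library of another group cannot change the difference, so part of this agreement was fixed in advance. With all libraries 27 of the 66 genes were called for diet in control, 9 for diet in cwoB9, 41 for genotype on low sugar, 35 on high sugar and 13 for the interaction. Leaving out 1 library gave 23 to 31, 8 to 13, 39 to 42, 24 to 38 and 8 to 16 in that order, with 8 for the interaction without control low-sugar library 3. For diet in cwoB9 a fit of only the 8 libraries compared called 14, and omission of the 5 libraries with high values, chosen after seeing the data, called 25, while the interaction then had 6. The cause was not tested. The median SD within groups moved between 0.266 and 0.385.

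With the replicate number as a replicate block the counts were 29, 11, 42, 40 and 13. Deviations of the 24 same-numbered pairs of libraries correlated at -0.34 to 0.44, over 0.1 in 13, and 8 correlated best with their own number. Not every pair passed 0.1, so the numbers were not taken to pair the libraries. The 6 pairs of replicate 2, at 0.14 to 0.44, each correlated best with their own number, which is a hint from the data and not from the design. The pseudocount shrinks the differences of genes near or under 1 CPM.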
